A study of Rattus norvegicus with 8 samples.

Results

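Genes of the hormone-producing cells of the gut, 9 in all, were followed through a rat study of lavender oil (LO). They were *Gcg* (NM_012707), *Cck* (NM_012829), *Sst* (NM_012659), *Gip* (NM_019630), *Sct* (NM_022670), *Chga* (NM_021655), *Pyy* (NM_001034080), *Ghrl* (NM_021669) and *Tac1* (NM_012666). Their probes were chosen by these identifiers on the arrays, which gave 11 probes for the 9 genes among 41012 non-control probes, which carry 36958 different identifiers. The genes themselves were proposed with LO/control values of these data known, so their LO/control values are given as a description. Counts of calls among them are printed beside the share over all probes, and nothing is read from them. *Gip* and *Chga* each had 2 probes, and the probes of *Cck*, *Sst*, *Ghrl* and *Tac1* were each printed 10 times and averaged. All 11 probes passed the filter on dim probes, which 30592 of 40979 probes passed after outlier features were left out.

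In the control group, male rats received 10% ethanol into the stomach once a day for 13 days, and in the LO group they received lavender oil at 5 mg/kg in the same 10% ethanol. Of the 12 rats, whose age is given as 7 weeks, 6 were in each group, and tissues were taken on day 14 by the study's scheme, which the animal protocol words as 14 days after treatment. Their strain is given as Wistar in the sample annotation and as F334 (Fischer) in the animal protocol. Total RNA of the rats of a group was pooled, so each pool is 1 biological sample and its arrays hold no variation between animals. Each array compared a control pool with an LO pool of the same tissue. LO carried Cy5 on array 1 of a pair and Cy3 on array 2. The small intestine, sampled about 20 cm from the duodenum, had 2 arrays, the spleen had 2, and the liver had 2 groups with 2 arrays each. The liver groups are 2 separate tissue pools by the methods, and 2 blocks were cut from each liver. Which rats or blocks went into which pool is not given in the sources used here. The error of every limma value below comes from the 2 liver groups, since spleen and small intestine have 1 pool of each treatment and are assumed to vary like the liver.

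Enteroendocrine cells are scattered single cells of the gut epithelium that sense nutrients and release peptide hormones from granules. Different hormones prevail at different levels of the gut: gastrin and ghrelin are best known from the stomach, secretin, cholecystokinin and GIP from the upper small intestine, and GLP-1 and PYY from the ileum and colon. Some of the same genes are also used by pancreatic islets, where *Gcg* encodes glucagon, *Sst* somatostatin and *Chga* chromogranin A, and by neurons, which use *Cck*, *Sst* and *Tac1*.

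Bases before the transcription start were available from RefSeq (build GRCr8) for 6 of the 9 genes, and those of *Gcg* and *Gip* are shown because they are the stretches among the 6 with a match to a motif searched. *Gcg* encodes proglucagon, which L cells cut into GLP-1 and GLP-2. *Gip* encodes the incretin of K cells. The stretches end at the last base before the gene start, at chr3:67531534-67531783 (minus strand) for *Gcg* and chr10:81464820-81465069 (plus strand) for *Gip*. Capitals mark matches, on either strand, to TATAAA or GATAAG.
Gcg: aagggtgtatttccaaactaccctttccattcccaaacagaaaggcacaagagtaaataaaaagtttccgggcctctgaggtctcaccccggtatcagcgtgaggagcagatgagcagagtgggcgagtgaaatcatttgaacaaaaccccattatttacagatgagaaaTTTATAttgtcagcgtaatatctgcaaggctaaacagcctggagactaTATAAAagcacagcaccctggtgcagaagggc
Gip: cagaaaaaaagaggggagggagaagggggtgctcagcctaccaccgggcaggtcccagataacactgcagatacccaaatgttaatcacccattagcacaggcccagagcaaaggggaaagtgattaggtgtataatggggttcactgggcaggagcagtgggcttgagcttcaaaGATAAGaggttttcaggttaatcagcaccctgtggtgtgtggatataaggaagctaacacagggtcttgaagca
TATAAA, the core of a TATA box, was found before *Gcg* only among the 6 genes, and 12.9% of 33469 promoters of the same length held it. GATAAG, a motif of GATA factors, was found before *Gip* only, and 6.18% of the promoters held it. TGACGTCA, the cAMP response element, was before none of the 6 and before 1.59% of the promoters. The matches describe these letters in these windows only.

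Across the arrays, 45.2% to 68.9% of 43379 features were well above background in a channel and none was saturated. LO/control of the 2 arrays of a pair was negatively correlated over the 30592 probes (Pearson r -0.596 in spleen, -0.631 in small intestine, -0.721 and -0.720 in liver groups). LO/control is therefore given for each array and as the mean of a pair, in which an effect of the dye cancels. Labelled tissues were checked against marker genes. All 4 small intestine epithelium markers measured were higher in the small intestine than in the spleen. Against the liver 3 of the 4 were higher, and *Apoa4*, 1.82-fold, did not pass (limma adjusted p = 0.0582). All 6 hepatocyte markers were higher in the liver than in the small intestine. *Cd79b*, the only B or T cell marker with a named probe, was 110.7-fold higher in the spleen than in the small intestine. Each tissue lay on a slide of its own, and the liver slide was scanned on another day, so tissue and slide cannot be told apart.

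The first comparison asked where the 9 genes were expressed in control rats. In the small intestine all 11 probes were well above background on both arrays, in control and in LO, against 59.0% of all probes in the control channel. In the control spleen 4 probes were well above background on both arrays and 7 on none, where 57.6% of all probes were on both. In the control liver 3 probes were well above background on all 4 arrays, 2 on some arrays and 6 on none, where 41.0% of all probes were on all 4. All 11 probes were higher in the small intestine than in the spleen (limma, adjusted p under 0.05), where 9.14% of all probes were. Against the liver 10 of 11 were higher, where 15.3% of all probes were. The median log2 difference of the 11 probes was 5.87 against the spleen and 6.45 against the liver, beside -0.11 and 0.02 over all probes tested. Without the small intestine arrays, *Gcg*, *Sst*, *Gip* probe A_44_P503562, *Chga* probe A_42_P616342, *Pyy* and *Tac1* would have missed the filter on dim probes. For these probes a higher small intestine level was thus favoured by the filter, and the counts beside all probes are no test. The p-values of these probes for small intestine against the other tissues carry the same limit. In bulk tissue, fewer cells of a type and less RNA per cell cannot be told apart.

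**Figure D1:**
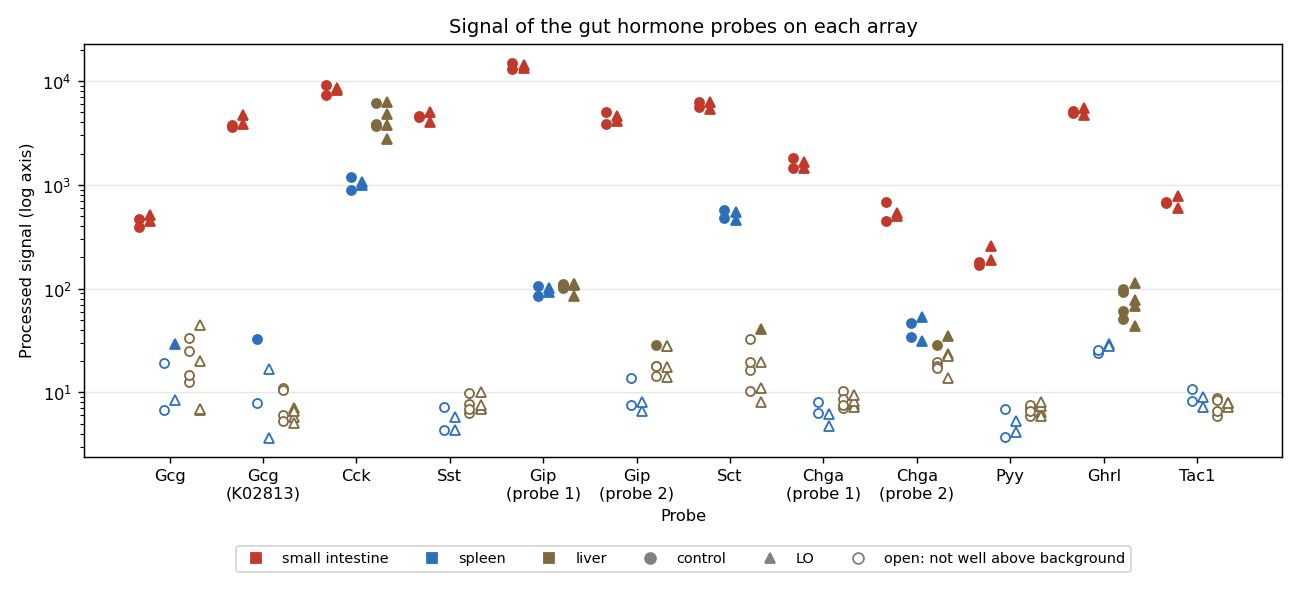
Processed signal (log axis) of each probe on each array, by tissue, with circles for control and triangles for LO; open symbols were not well above background. For *Cck* the liver control signals of 3684 to 6153 came near the 7299 and 9075 of the small intestine, while the other probes were separated widely.

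Signals below are the dye-normalized Cy3 and Cy5 intensities that the authors deposited, on a linear scale, and they compare a probe with itself only. A level is the log2 signal after normalization between arrays, and a difference of levels is given with the standard error (SE) of the fit. On this scale the housekeeping gene *Gapdh* was itself higher in the small intestine, by log2 2.37 over the spleen and 1.45 over the liver, and both differences passed in limma. Where a probe was well above background on no control array of a tissue, the difference is a bound. It is the mean of the brighter tissue over the mean, per array, of the dim probe's own signal or of the dimmest probe well above background, whichever was higher. The p-value printed beside a bound belongs to the fitted difference, which uses the dim signals as they are. For *Gcg* against the spleen the fitted difference was 33.2-fold. The bounds themselves were not tested.

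Among the incretin genes, *Gcg* gave control signals of 470.0 and 390.1 in small intestine, 19.3 and 6.75 in spleen, and 25.2, 12.7, 33.6 and 14.8 in liver. None of the spleen and liver control values was well above background. *Gcg* was at least 18.5-fold higher in the small intestine than in the spleen (limma adjusted p = 0.00661) and at least 11.1-fold higher than in the liver (limma adjusted p = 0.00409). A second glucagon probe, K02813, outside the 11 and annotated as exon 6 of the gene in the study's own lists, gave 3758 and 3608 in the small intestine. Its spleen signals were 7.83 and 32.8, of which 1 of 2 was well above background, and its liver signals of 5.27 to 11.0 were not. It was at least 97.6-fold higher in the small intestine than in the liver (limma adjusted p = 0.0023), so both glucagon probes were highest in the gut. K02813 too would have missed the filter on dim probes without the small intestine arrays.

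Both *Gip* probes were far higher in the small intestine than elsewhere, but they disagreed on whether spleen and liver were above background. Probe A_44_P283385 gave 15032 and 13063 in small intestine, 107.0 and 85.2 in spleen and 101.4 to 110.0 in liver, all well above background. Its small intestine level was 171.8-fold that of the spleen (log2 7.42 ± 0.27 SE, limma adjusted p = 0.00337) and 89.3-fold that of the liver (log2 6.48 ± 0.23 SE, limma adjusted p = 0.00112). Probe A_44_P503562 gave 4993 and 3862 in the small intestine, and in spleen and liver its signals of 7.56 to 28.5 were well above background on 0 of 2 and 1 of 4 arrays. It was at least 202.7-fold higher than in the spleen (limma adjusted p = 0.00471). The first probe was above background in all spleen and liver samples, and the second was in 1 of them.

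*Cck* encodes cholecystokinin, and it was the member with a liver level near that of the small intestine. Its control signals were 9075 and 7299 in small intestine, 1189 and 895.4 in spleen, and 6153, 3684, 3823 and 3751 in liver. Every one of the 10 copies was well above background on every array. The small intestine was 8.87-fold above the spleen (log2 3.15 ± 0.41 SE, limma adjusted p = 0.0208). Against the liver the difference was 0.58 ± 0.36 SE on the log2 scale and did not pass (limma adjusted p = 0.289), with a range of 0.30 to 0.94 over 9 alternative settings. The liver was 5.92-fold above the spleen (limma adjusted p = 0.0128). Only this probe represents *Cck*.

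*Sct* encodes secretin, which calls for bicarbonate from the pancreas. It gave 6353 and 5619 in small intestine, 569.3 and 482.4 in spleen, and 16.4, 19.7, 10.3 and 32.6 in liver. The spleen values were well above background and the liver values were not. The small intestine was 13.7-fold above the spleen (log2 3.78 ± 0.37 SE, limma adjusted p = 0.0126). The spleen was in turn at least 10.8-fold above the liver (limma adjusted p = 0.00411). *Sct* was thus the member with measurable spleen signal and none measurable in control liver.

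*Sst* encodes somatostatin, which inhibits the release of other gut hormones. Its control signals of 4654 and 4529 in small intestine stood against 4.35 and 7.24 in spleen and 6.26 to 9.95 in liver. It was at least 212.3-fold above the spleen (limma adjusted p = 0.00333) and at least 122.1-fold above the liver (limma adjusted p = 0.000748). *Pyy*, a hormone of the lower gut that curbs appetite, was the member with the smallest bounds. Its signals were 181.0 and 168.1 in small intestine, 3.72 and 6.98 in spleen and 5.90 to 7.54 in liver. The bounds were at least 8.04-fold against the spleen (limma adjusted p = 0.00523) and at least 4.62-fold against the liver (limma adjusted p = 0.00182).

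*Ghrl* encodes ghrelin, the hunger hormone of the stomach, and its probe was bright in this stretch of small intestine at 5107 and 4930. The liver gave 50.8 and 60.2 in group 1 and 91.9 and slightly more in group 2, well above background in 6 to 10 of the 10 copies, while the spleen gave 23.8 and 25.8 with 3 and 1 of 10 copies above. The small intestine was 46.4-fold above the liver (log2 5.54 ± 0.53 SE, limma adjusted p = 0.00755). Against the spleen the fitted difference was 211-fold (log2 7.72 ± 0.61 SE, limma adjusted p = 0.00879). The bound equals this fitted value, since the dim spleen signals were used as they are, and a smaller difference lies within its error. Liver group 2 lay above group 1 on both of its arrays.

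*Tac1* encodes substance P and neurokinin A, used by enteric neurons and by some endocrine cells. It gave 690.5 and 662.2 in small intestine, 10.8 and 8.30 in spleen and 5.90 to 8.91 in liver. It was at least 30.4-fold above the spleen (limma adjusted p = 0.00554) and at least 17.5-fold above the liver (limma adjusted p = 0.00169). *Chga*, the granule protein chromogranin A, had 2 probes. Probe A_42_P616342 gave 1828 and 1454 in the small intestine and was at least 73.2-fold above the spleen (limma adjusted p = 0.00357). Probe A_44_P300328 gave 676.6 and 450.3 there and was 14.6-fold above the spleen (limma adjusted p = 0.00938), whose signals of 46.5 and 34.4 it read as well above background.

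Between spleen and liver, 4 of 11 probes differed, where 38.6% of all probes did (limma, adjusted p under 0.05). *Sct* was higher in the spleen, and *Cck*, *Gip* probe A_44_P283385 and *Ghrl* were higher in the liver. Of these, *Sct* and *Cck* passed under all 9 alternative settings. *Gip* (log2 -0.94 ± 0.23 SE, spleen minus liver) passed under 4 and *Ghrl* under 3.

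Genes that work beside the hormones were read from lists. The genes tested had passed the same filter on dim probes. Some, including *Chgb* and, among the pancreas markers below, *Clps*, were well above background in small intestine only. For such genes a higher small intestine level was favoured by the filter, and the list counts are no test. Of 13 other gut peptides tested, 6 were higher in the small intestine than in the spleen and 1 was lower, with a median log2 difference of 2.94. *Guca2a* (guanylin) was 2192-fold higher (limma adjusted p = 0.00337), *Guca2b* (uroguanylin) 1953-fold (limma adjusted p = 0.00333) and *Nmu* (neuromedin U) at least 42.8-fold (limma adjusted p = 0.00354). *Gal* (galanin), well above background on 1 of 2 spleen arrays, was 84.7-fold higher (limma adjusted p = 0.0251). Of 10 granule and prohormone-processing genes, 4 were higher and 0 lower (median 1.18). *Chgb* (chromogranin B) was at least 474-fold higher (limma adjusted p = 0.00333), *Cpe* (carboxypeptidase E) 14.9-fold (limma adjusted p = 0.0101) and *Scg2* (secretogranin II) 8.80-fold (limma adjusted p = 0.043). *Scg2* was well above background on 1 of 2 control spleen arrays.

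Of 6 enteroendocrine transcription factors, 2 were higher in the small intestine than in the spleen (median 1.17). They were *Foxa2*, at least 15.2-fold (limma adjusted p = 0.00423), and *Neurod1*, at least 3.04-fold (limma adjusted p = 0.00913), while *Pax6* did not pass (limma adjusted p = 0.39). Against the liver 1 of the 6 was higher and 2 were lower (median -0.91). *Neurod1* was higher there too, at least 1.75-fold (limma adjusted p = 0.00439). *Foxa2* was 7.13-fold lower in the small intestine than in the liver (limma adjusted p = 0.00552). *Foxa1* was also lower (limma adjusted p = 0.00767) and not well above background in control small intestine. Of 14 receptors of the 9 hormones, 3 were higher and 2 lower (median 0.91). Against the liver 5 receptors were higher and 2 lower, and *Gcgr*, the glucagon receptor, was 131.9-fold lower in the small intestine (limma adjusted p = 0.00094). Among 7 nutrient sensors 2 were higher than in the spleen, the glucose transporter *Slc5a1*, at least 61.8-fold (limma adjusted p = 0.00471), and the fatty acid receptor *Ffar4*, 5.53-fold (limma adjusted p = 0.0161). Of 5 peptidases that degrade the hormones, 3 were higher than in the spleen, *Enpep* at least 372-fold (limma adjusted p = 0.00333), *Mme* 74.9-fold (limma adjusted p = 0.00394) and *Anpep* 44.6-fold (limma adjusted p = 0.00429). Of 3 serotonin-cell genes tested, *Slc18a1* was higher, at least 6.42-fold (limma adjusted p = 0.0285).

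The genes most like *Gcg* over the 8 pooled RNA samples were picked by Pearson r of the log2 levels. They were *Naaladl1* (a brush border peptidase), ENSRNOT00000024151, AA819537, *Itgb6* (an integrin subunit) and *Gpx2* (a gut glutathione peroxidase), each at r = 0.996. The 8 samples share 3 tissues and their slides, and 96 probes had r over 0.99, and the likeness was mostly that of small intestine against the other tissues. K02813 had r = 0.963 with the *Gcg* probe and ranked 829 of 30591.

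Pancreas transcripts were abundant in the small intestine samples. All 11 exocrine markers tested were higher in the small intestine than in the spleen and in the liver and were well above background on every small intestine array. Summed signals here and below differ from the signals above. They add the levels of a list's different probes, put back on the linear scale after normalization between arrays. For the exocrine markers the summed signal was 1242217 to 1292813 in control small intestine, 1047 to 1055 in spleen and 3895 to 5457 in liver. *Cpb1* was at least 7995-fold, *Amy2a3* at least 7868-fold and *Pnlip* at least 4236-fold above the spleen (limma adjusted p = 0.00542, 0.00354 and 0.00333). All 5 islet markers tested were also higher than in the spleen, among them *Pdx1*, at least 75.8-fold (limma adjusted p = 0.0471), *Ins2*, 39.0-fold (limma adjusted p = 0.0126), and *Ins1*, 17.3-fold (limma adjusted p = 0.0117). *Ins2* was well above background on 1 of 2 control spleen arrays. The summed signal of the islet markers was 3439 to 3623 in small intestine, 109.7 to 117.8 in spleen and 216.0 to 390.2 in liver. *Iapp* and *Ppy* stand in the islet list and in that of other gut peptides, and *Pdx1* is also a gene of the duodenum. Enteric neuron markers, 4 of 6 higher than in spleen, summed to 1312 to 1416 in small intestine and 453.0 to 457.3 in spleen. The part of pancreatic or neuronal tissue in the signals of *Gcg*, *Sst*, *Chga*, *Pyy*, *Cck* and *Tac1* was not tested.

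The second comparison described LO/control of the 9 genes. In the small intestine the 11 probes had log2 LO/control from -0.09 to 0.34 with a median of 0.00, as pair means from 1 RNA pool per treatment. *Pyy* and *Gcg* were above control on both arrays, and *Sct* and *Chga* probe A_42_P616342 lay below on both, by at most 0.13. Over all probes tested, 14.1% were above control and 12.5% below on both arrays. In limma 0 of 11 probes had an adjusted p under 0.05 in the small intestine, the spleen or the liver, and 0% of all 30592 probes had one in each of them. At an unadjusted p under 0.05 there were 1206, 1302 and 1778 of all probes in the small intestine, the spleen and the liver, and 1, 0 and 1 of the 11. With normexp background correction limma gave 32, 108 and 150 of all probes and 0 of the 11 in each tissue. Nothing is read from these counts about the 11 probes, since LO/control values were known when the genes were proposed.

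*Pyy* in the small intestine had signals of 181.0 in control and 258.8 in LO on array 1 and of 168.1 and 188.3 on array 2. Its log2 LO/control was 0.52 and 0.16, with a pair mean of 0.34 ± 0.25 (SD of 2 arrays of the same RNA). The *Gcg* probe read 470.0 and 516.3 on array 1 and 390.1 and 448.2 on array 2, or log2 0.14 and 0.20, with a mean of 0.17 ± 0.05 (SD, 2 arrays). K02813 gave 0.34 and 0.09. Both glucagon probes were thus slightly above control on both arrays, and with normexp the means were 0.07 and 0.20. The normexp mean of *Pyy* was 0.23.

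The other hormones changed sign with the dye or stayed within 0.13 of 0. *Cck* had log2 LO/control of -0.07 and 0.18, *Sst* 0.10 and -0.17, and *Ghrl* 0.11 and -0.07. *Tac1* had 0.18 and -0.13, and *Sct* -0.01 and -0.06. The *Gip* probes gave -0.08 and 0.03, and -0.10 and 0.11. The *Chga* probes gave -0.13 and -0.01, and -0.33 and 0.14. In 7 of the 11 probes the sign thus changed with the dye.

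**Figure D2:**
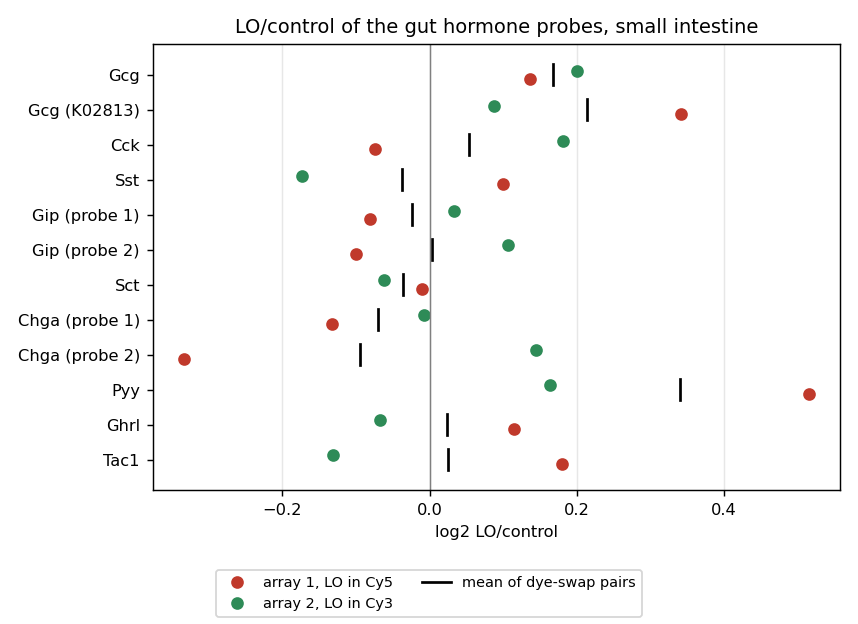
Log2 LO/control in the small intestine for each probe on array 1 (LO in Cy5) and array 2 (LO in Cy3), with a bar at their mean; all points were well above background in both channels. *Pyy* and both glucagon probes lie to the right of 0 on both arrays, between 0.09 and 0.52.

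Pancreas markers were compared in the same samples. Of the 5 islet markers, *Ins1* (0.37 and 0.25), *Ins2* (0.36 and 0.23) and *Iapp* (0.44 and 0.12) were above control on both small intestine arrays on the log2 LO/control scale, and 0 were below on both. *Ppy* (-0.07 and 0.42) and *Pdx1* (-0.30 and 0.06) changed sign between the arrays. Of all probes tested, 14.1% were above control and 12.5% below on both arrays. The summed islet signal was 3893 to 3895 in LO against 3439 to 3623 in control. Of the 11 exocrine markers, 6 were below control on both arrays and 0 above on both, among them *Amy2a3* (-0.39 and -0.48) and *Clps* (-0.25 and -0.33). Their summed signal was 969351 to 1207002 in LO. None of these probes passed in limma. The part of pancreatic tissue in the LO/control values of *Gcg* and *Pyy* was not tested.

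**Figure D3:**
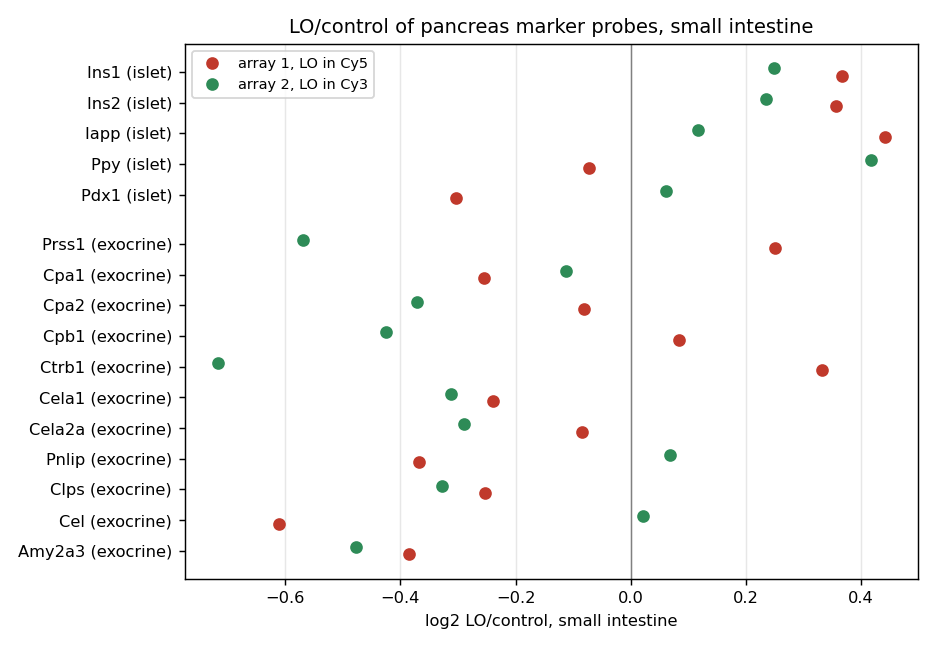
Log2 LO/control in the small intestine for 5 islet and 11 exocrine pancreas marker probes on array 1 and array 2. *Ins1*, *Ins2* and *Iapp* lie above 0 on both arrays, at 0.12 to 0.44, and 6 exocrine markers lie below 0 on both.

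Companion genes in the small intestine had the following medians on the log2 LO/control scale, beside 0.00 over all probes. The median was -0.04 for other gut peptides, -0.04 for granule and processing genes, -0.10 for transcription factors, 0.00 for serotonin-cell genes, 0.11 for receptors, 0.04 for nutrient sensors and -0.05 for peptidases. The sensors had the widest range, from -0.76 to 0.99. At its ends were *Ffar2*, a receptor of short-chain fatty acids (-0.18 and -1.34, the second not well above background), and *Abcc8*, a subunit of the ATP-sensitive potassium channel (1.97 and 0, neither well above background). *Ffar2* was also below control on both spleen arrays (-0.25 and -0.83), where it was well above background. None of them passed in limma in any tissue. Of the 10 granule genes, 0 were above control and 1 was below on both arrays. *Gapdh* (2 probes) had -0.10 and -0.04, and -0.07 and -0.01.

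In the spleen and the liver most members gave ratios of dim signals. *Gcg* in the spleen read 19.3 in control and 8.45 in LO on array 1, and 6.75 and 29.3 on array 2, of which the last alone was well above background. Its log2 LO/control was -1.20 and 2.12 in spleen, and -1.89, 0.68, -2.28 and 1.59 in liver. On all 6 of these arrays the value was below control with LO in Cy5 and above it with LO in Cy3. K02813 did not follow that pattern, with -1.10 and -0.97 in spleen from signals of 3.65 to 32.8, and 0, 0, -0.65 and -0.66 in liver. *Sct* in the liver had 0.26, -1.27, 1.98 and -1.56, and 1 of its 8 signals there was well above background. *Pyy* was at a ratio of exactly 1 on all 6 spleen and liver arrays, with signals of 3.72 to 8.03 that were not well above background in either channel.

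Where members were bright outside the gut, LO/control was small or changed sign. *Sct* in the spleen had -0.06 and -0.08. *Cck* had -0.15 and 0.15 in spleen and -0.35, 0.77, -0.48 and -0.01 in liver, with a pair mean of 0.21 in liver group 1 and -0.24 in group 2. *Gip* probe A_44_P283385 stayed between -0.08 and 0.14 in spleen and between -0.34 and 0.11 in liver. *Ghrl* in the liver had 0.41, -0.47, 0.29 and -0.36, opposite in sign on the 2 arrays of each pair. No member was above control on all 4 liver arrays or below on all 4, where 6.14% of all probes were one or the other.

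**Figure D4:**
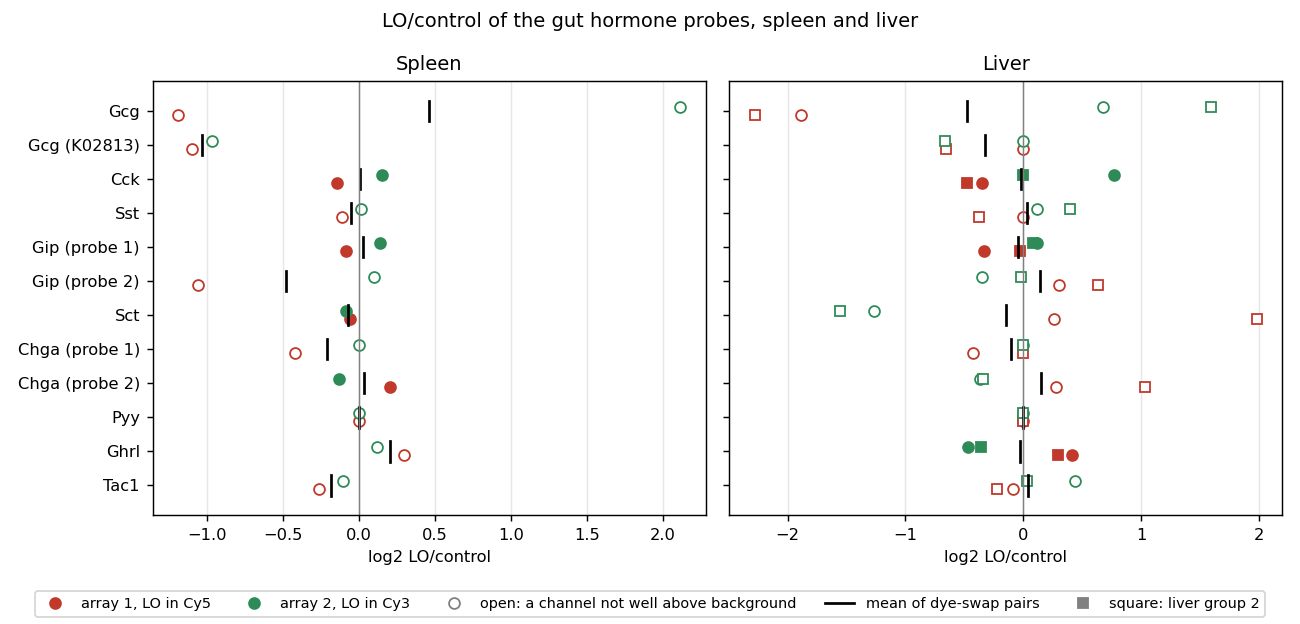
Log2 LO/control in spleen and liver for each probe and array; red marks LO in Cy5, green LO in Cy3, squares liver group 2, and open symbols a channel not well above background. The *Gcg* values range from -2.28 to 2.12 and are open throughout.

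The remaining members in these tissues had pair means between -0.48 and 0.21 in spleen and between -0.22 and 0.34 in the liver groups, on the log2 LO/control scale. *Ghrl* was above control on both spleen arrays (0.30 and 0.12) and *Tac1* below on both (-0.26 and -0.11). The *Ghrl* signals there were dim, at 23.8 to 29.2. Of its 10 copies, 3 and 1 were well above background in control and 10 and 3 in LO. Differences in LO/control between tissues passed in limma for 0 of 30592 probes in each of the 3 pairs of tissues. At an unadjusted p under 0.05 there were 1111, 1377 and 1452 (small intestine and spleen, small intestine and liver, spleen and liver), and with normexp limma gave 23, 27 and 67 after adjustment. The ratio cut-offs of the methods ask for a Cy5/Cy3 ratio of 1.5 or more on one array of a pair and of 0.75 or less on the other. With a P under 0.01 as well, 0 of 47 member features were called in any pair. Of all 43345 features 0.0208% were called in small intestine, 0.0161% in spleen, 0.0208% in liver group 1 and 0.0392% in liver group 2. Without the P the shares of all features were 0.713%, 0.551%, 0.810% and 1.25% in the same order, and 1 of 47 member features was called, a copy of the *Tac1* probe lowered in spleen. None of the 10 *Tac1* copies was well above background there. K02813, outside the 47, was also past the ratio cut-offs without the P, lowered in spleen and in liver group 2, from signals of which 1 of 8 was well above background.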

How the data were processed

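Each of the 8 two-colour Agilent 4x44K arrays compared control and LO RNA, pooled by group before labelling. Images were read by the authors with Agilent Feature Extraction 11.0.1.1, whose file headers name build rn4. The deposited Cy3 and Cy5 intensities were background-subtracted and LOWESS dye-normalized by the authors. The deposited log10 ratios of Cy5 over Cy3 come from these intensities. Each ratio carries a deposited p-value that the software computed for its array, used for the study's cut-offs only. The series value table holds the authors' log10 ratios of the same arrays.

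Ratios were turned to LO over control and put on the log2 scale. The 34 features marked as outliers were left out, copies of a probe were averaged, and a probe was kept if 2 or more arrays had a channel well above background for it. The arrays of a dye-swap pair hold the same RNA and were averaged to 1 replicate. LO/control was fitted with limma 3.58.1 (R 4.3.3), 1 coefficient per tissue, with 1 residual and 1.20 prior degrees of freedom. For levels, intensities were normalized between arrays (Aquantile), Cy3 and Cy5 values of an RNA averaged, and control pools compared in limma over 8 RNA samples. P-values were Benjamini-Hochberg adjusted over 30592 probes, at a threshold of 0.05. They measure spread between pooled samples, not between rats. The scripts were tested on simulated data. On arrays precision is limited by their number, and signal over background stands in for depth.

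Members and gene lists were chosen with earlier results of these data known. Named were all member probes, the second glucagon probe, up to 3 genes of a list with the largest level difference and the 5 probes most like *Gcg*. The pancreas genes given with LO/control values and the promoters shown, as well as *Gal*, *Ffar2* and *Abcc8*, were picked outside that rule after values were seen. Symbols came from RefSeq (GRCr8) accessions, which matched 10760 of 40979 probes and 9 of 9 members. Replicate number is the dye orientation, and same-numbered arrays deviated together (mean r 0.627, 0.554 to 0.805 over 12 pairs of arrays). Alternatives were other normalizations, filters, call rules, array-level fits with and without the replicate block, and arrays or liver groups left out. The normexp alternative (offset 50) used median signals in place of mean signals.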

Additional observations from a re-analysis of the deposited data

Results flagged for a closer look

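The second glucagon probe (K02813, *Gcg*) was above control on both small intestine arrays and below control on both spleen arrays. Its mean log2 LO/control was 0.21 in small intestine and -1.04 in spleen, a difference of 1.25 that did not pass (limma adjusted p = 1). The spleen signals behind it were 3.65 to 32.8, of which 1 of 4 was well above background. The *Gcg* probe had 0.17 and 0.46 in the same tissues. Groups of 2 arrays were not tested for a single array lying apart.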

How the results depend on the processing

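For LO against control, 0 probes passed in each tissue in limma. Fitting the 8 arrays without averaging pairs gave 1 probe in small intestine without the replicate block and 1 with the block, and 1 between small intestine and liver in both of these fits. With normexp, 32, 108 and 150 probes passed in small intestine, spleen and liver, and 23, 27 and 67 between small intestine and spleen, small intestine and liver, and spleen and liver. The ratio cut-offs of the methods, asked of every array of a tissue, gave 9, 7 and 4 features with the P and 309, 239 and 20 without it. For the liver that is stricter than the methods, which take each pair alone. That setting, added after seeing the data, gave 9 and 17 features with the P and 351 and 543 without it in liver groups 1 and 2. Leaving out either array of every pair gave 0. For control levels, 5456, 8980 and 11816 probes passed in the same 3 comparisons, 14172, 17997 and 19846 in the 16-channel fit with the replicate block, and 3871 to 5764, 6857 to 9484 and 9369 to 12261 with an array of each pair left out. The block ended no call of the 11 probes against small intestine. The fits to 8 arrays and to 16 channels treat dye-swap values of the same RNA as separate observations in every tissue. Of the 11 probes, 4 passed between spleen and liver. Without between-array normalization 2 did, with the 75th percentile 8, with normexp 2, without the filter 2, and with an array of each pair left out 2 to 4. With the 75th percentile, *Chga* probe A_42_P616342 and *Pyy* turned to -1.09 and -1.29 for spleen minus liver on the log2 scale (limma adjusted p = 0.0401 and 0.0366), with both tissues below background. The causes were not tested. Without between-array normalization the median of all probes moved from -0.11, 0.02 and 0.10 to -0.25, 0.45 and 0.69, and the share of calls that were higher in the first tissue moved from 52.3% to 71.0% (small intestine and liver) and from 55.6% to 74.4% (spleen and liver). All 11 probes passed above the spleen, and all but *Cck* above the liver, under the 9 alternatives run. With normexp the median log2 differences of the 11 shrank to 3.36 and 3.69. Dim signals limit the spleen and liver ratios of most members.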
